A study of Mus musculus with 12 samples.

Results

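Serotonin and histamine are monoamine transmitters whose receptors lie in part in the hypothalamus, where both act on feeding, arousal and body temperature. The genes described here are 8: Hdc, which encodes histidine decarboxylase, the enzyme that makes histamine, the histamine receptors Hrh1 and Hrh3, and the serotonin receptors Htr1a, Htr1b, Htr2a, Htr2c and Htr3a. They were taken as every probe whose gene symbol in the platform annotation is one of these names or a synonym, which gave 8 probes, 1 per gene, of 33012 probes, and 8 of 13840 named genes. By RefSeq genes of GRCm38.p6, Hdc and Hrh3 lie on chromosome 2, Hrh1 on chromosome 6, Htr1b and Htr3a on chromosome 9, Htr1a on chromosome 13, Htr2a on chromosome 14 and Htr2c on chromosome X, so 0 of the 8 lie on chromosome 17.

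Male mice of the strain B6.CAST-17, homozygous for a chromosome 17 segment that came from the strain CAST, were compared with male wild type B6 mice. The 4 groups of 3 arrays each were congenic hypothalamus, wild type hypothalamus, congenic skeletal muscle and wild type skeletal muscle, each of tissue frozen whole. The labels name no treatment and no age. The titles call the hypothalamus congenics short, and do not call the muscle congenics so. The series concerns a strain with altered physical activity and carbohydrate preference, and the comparison asks whether its hypothalamic and muscle transcripts differ from those of B6.

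All levels below are log2 intensities of 1-colour arrays as the authors deposited them, scaled within each tissue, while differences between the tissues come from the 12 arrays normalized together, and a probe's percentile is its rank among all probes of the same array. Wild type hypothalamus array 1 stood apart from the rest of its tissue. Its Spearman correlation across probes with the other 5 hypothalamus arrays was 0.42 to 0.461, where these gave 0.775 to 0.853 among themselves. The median of 8 neuronal markers was 13.72 to 14.70 on those 5 arrays, 11.36 on wild type array 1 and 8.27 to 9.85 on the 6 muscle arrays, and the median of 9 skeletal muscle markers was 8.81 to 9.46, 9.84 and 19.79 to 20.12 on the same arrays. A list of 8 hypothalamic markers had a median of 14.55 to 14.98, 13.59 and 8.77 to 9.36 on these arrays. The markers of these lists did not move together on wild type array 1. Eno2 and Tubb3 were 9.08 and 10.36 on it, against 16.45 to 18.73 and 16.04 to 18.68 on the other 5 hypothalamus arrays. The other neuronal markers lay within or above the range of those 5 arrays. Hcrt was 9.06 on wild type array 1, against 16.30 to 19.10. The other hypothalamic markers lay near or within the range of the 5 arrays, or above it. Strain comparisons of the 8 genes and of the gene lists in hypothalamus are therefore given with and without wild type array 1. Those of single listed genes are given without it. The congenic hypothalamus arrays also differed among themselves. The median of 7 anterior pituitary markers was 8.86 to 14.94 on them, 8.38 to 9.48 on wild type arrays 2 and 3 and 9.27 on wild type array 1. That of 6 oligodendrocyte markers was 9.76 to 12.57, 9.80 to 10.01 and 7.82 on the same arrays. The part of these cells in the strain differences was not tested. Why wild type hypothalamus array 1 stood apart was not tested. In whole tissue, fewer cells of a type and less RNA per cell cannot be told apart.

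In the hypothalamus the histamine genes Hdc and Hrh3 stood above their level in muscle, and the other 6 genes did not pass the test between the tissues at an adjusted p under 0.05. Hdc was 9.26-fold higher in hypothalamus than in muscle, and 16.4-fold higher without wild type array 1, and Hrh3 was 5.05-fold and 5.63-fold higher. These folds compare measured signals, and whether the muscle signal of either gene lies above background is not known. Between the strains, 0 of the 8 genes passed in either tissue. The largest difference of means between strains in hypothalamus without wild type array 1 was that of the ion channel subunit Htr3a.

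Because Hdc and Hrh3 were the members higher in hypothalamus, the stretch around the transcription start of each is printed here, from 250 bases before to 50 bases after the start, from RefSeq on GRCm38.p6, whose table matched 7 of the 8 genes. The Hdc window is chr2:126618629-126618928 and the Hrh3 window is chr2:180104358-180104657, both on the minus strand and written 5′ to 3′ along the gene. Capitals mark exact matches, on either strand, to a GC box (GGGCGG) or a CCAAT box (CCAAT).
Hdc: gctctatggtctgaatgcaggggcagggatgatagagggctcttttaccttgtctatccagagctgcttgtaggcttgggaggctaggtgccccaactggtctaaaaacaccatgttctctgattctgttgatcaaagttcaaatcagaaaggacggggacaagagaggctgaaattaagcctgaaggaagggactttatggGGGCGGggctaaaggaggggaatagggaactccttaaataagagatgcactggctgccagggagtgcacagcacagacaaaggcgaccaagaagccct
Hrh3: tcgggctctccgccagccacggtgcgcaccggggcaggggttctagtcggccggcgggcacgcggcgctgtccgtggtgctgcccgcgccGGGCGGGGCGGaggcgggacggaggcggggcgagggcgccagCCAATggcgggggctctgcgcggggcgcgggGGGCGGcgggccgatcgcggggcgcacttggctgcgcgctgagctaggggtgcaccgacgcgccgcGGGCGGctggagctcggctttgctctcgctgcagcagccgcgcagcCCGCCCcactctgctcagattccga
The Hdc window held 1 GC box and 0 CCAAT boxes, with 3 CpG dinucleotides and 50.7% G and C. The Hrh3 window held 5 GC boxes, of which 1 pair shared 1 base, and 1 CCAAT box, with 47 CpG dinucleotides and 79% G and C. No GC box overlapped a CCAAT box. Of 32851 windows of this kind, 35.7% held a GC box and 37.4% a CCAAT box, and the median window held 7 CpG dinucleotides. A TATA box (TATAAA), an E box (CACGTG) and a cAMP response element (TGACGTCA) were also searched on both strands, with 0 matches in either window, and these letters were found in 13.6%, 7.15% and 1.79% of all windows. The CpG count of the Hrh3 window was above that of 98.6% of the windows and that of Hdc above 23.3%. These windows describe the sequence of the B6 reference and hold no measurement of the study.

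Hdc, in the brain a gene of the tuberomammillary neurons of the posterior hypothalamus and outside it of mast cells, was 12.56, 11.97 and 12.29 in congenic hypothalamus, against 7.91, 12.63 and 12.90 in wild type hypothalamus. In muscle it was 9.52, 7.52 and 8.12 in congenic mice, against 9.51, 9.01 and 8.40 in wild type mice. Wild type hypothalamus array 1 thus gave a level within the range of the muscle arrays, and the other 5 hypothalamus arrays lay above every muscle array. In percentiles these 5 arrays placed Hdc at 80 to 86.6, wild type array 1 at 21.4 and the muscle arrays at 5.7 to 56.1. The difference between hypothalamus and muscle was 3.21 (SE 0.75, 95% interval 1.59 to 4.84; limma adjusted p = 0.00561). Without wild type hypothalamus array 1 it was 4.03 (SE 0.36, 3.26 to 4.81; limma adjusted p = 4.42e-07).

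Hrh3, the histamine autoreceptor that sits on histaminergic and other nerve endings and limits transmitter release, was 12.27, 11.94 and 12.44 in congenic hypothalamus, against 12.07, 12.92 and 12.92 in wild type hypothalamus. In muscle it was 10.17, 11.04 and 9.90 in congenic mice, against 10.83, 11.01 and 8.56 in wild type mice. All 6 hypothalamus arrays lay above all 6 muscle arrays, wild type array 1 included. For neither Hdc nor Hrh3 is the share of all probes separated in this way given here. By limma 13% of all probes were called higher in hypothalamus over 12 arrays, and 18.6% without wild type array 1. The difference between hypothalamus and muscle was 2.34 (SE 0.45, 95% interval 1.36 to 3.32; limma adjusted p = 0.00154), and 2.49 (SE 0.41, 1.62 to 3.37; limma adjusted p = 0.000166) without wild type array 1. In muscle Hrh3 was at percentile 37.9 to 72.2, and the files give no detection calls.

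For Hdc the group means ran, from high to low, wild type hypothalamus without array 1 (12.76 ± 0.19, SD, n = 2), congenic hypothalamus (12.27 ± 0.30, n = 3), wild type muscle (8.97 ± 0.55, n = 3) and congenic muscle (8.39 ± 1.02, n = 3). With array 1 the wild type hypothalamus mean of Hdc was 11.14 ± 2.81 (n = 3), and the first 2 places changed. For Hrh3, with all arrays, the order was wild type hypothalamus (12.63 ± 0.49, n = 3), congenic hypothalamus (12.22 ± 0.25, n = 3), congenic muscle (10.37 ± 0.60, n = 3) and wild type muscle (10.13 ± 1.37, n = 3). Within a tissue the neighbours in these orders did not pass the strain test.

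**Figure D1:**
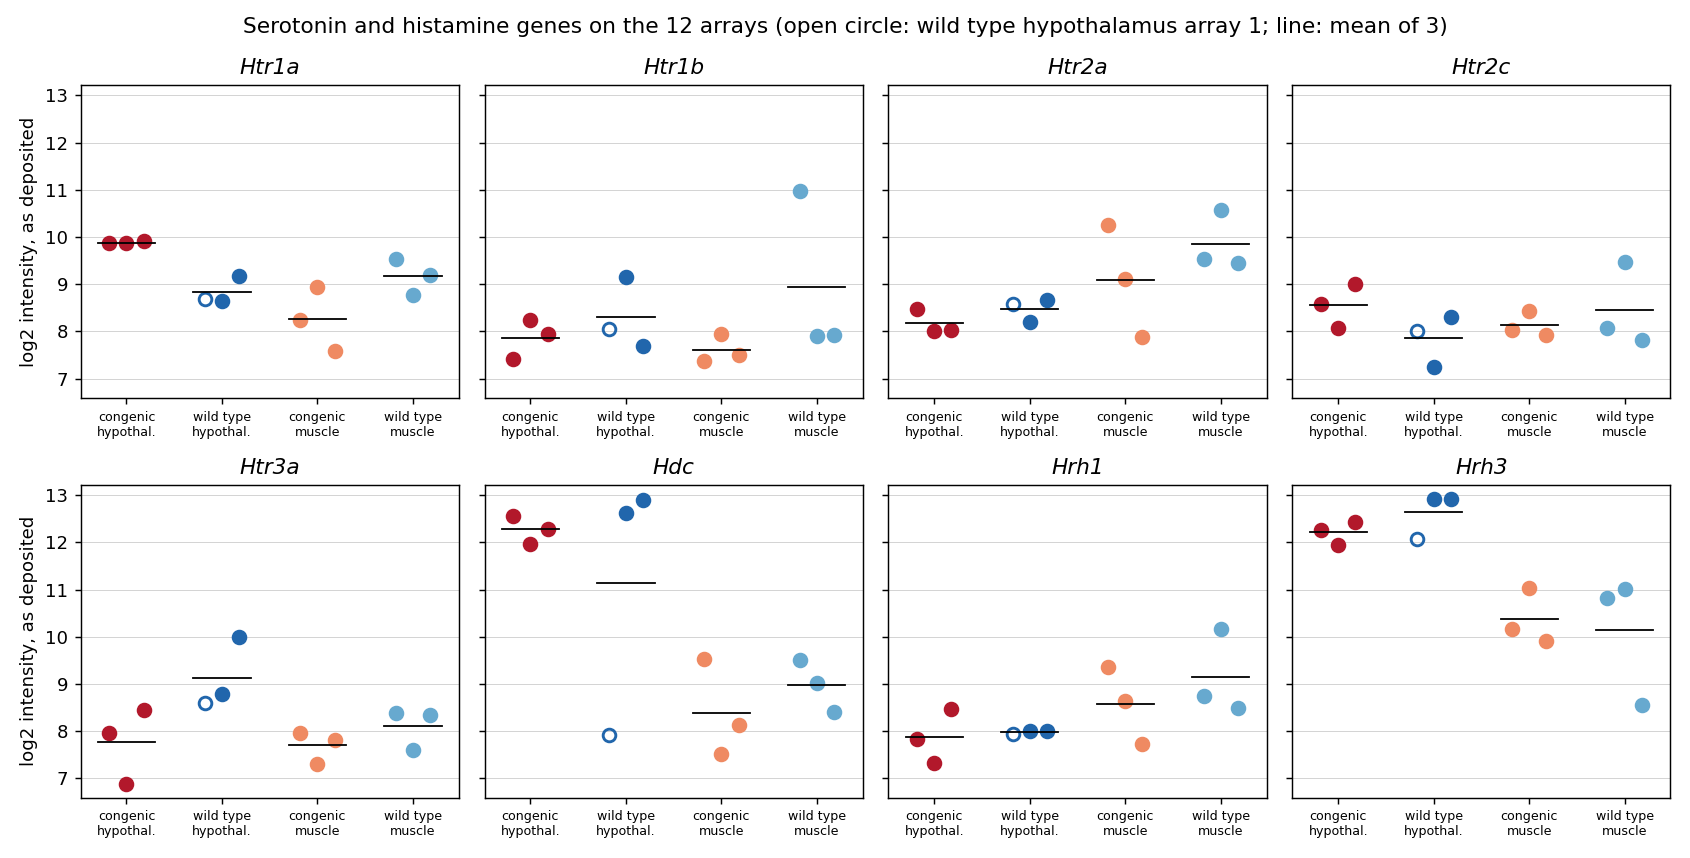
Log2 intensity (vertical axis) of the 8 genes on each of the 12 arrays, 1 point per array, with the mean of 3 as a line; the open circle is wild type hypothalamus array 1. Hdc lay at 11.97 to 12.90 on 5 hypothalamus arrays and at 7.91 on that array, Hrh3 at 11.94 to 12.92 on all 6, and the other genes ranged between 6.89 and 10.98 in both tissues.

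The remaining histamine receptor, Hrh1, which couples to Gq and carries the wake-promoting action of histamine, was 7.84, 7.32 and 8.46 in congenic hypothalamus, against 7.94, 8.01 and 8.0 in wild type hypothalamus. Its muscle levels were 9.36, 8.64 and 7.72 in congenic mice, against 8.74, 10.17 and 8.5 in wild type mice. The tissues overlapped, and their difference of -0.78 (SE 0.39) did not pass (limma adjusted p = 0.165).

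Htr1a, an inhibitory serotonin receptor found both on serotonergic cell bodies and on target neurons, was 9.87, 9.87 and 9.91 in congenic hypothalamus, against 8.68, 8.65 and 9.18 in wild type hypothalamus. The 3 congenic arrays lay above the 3 wild type arrays. In muscle the order was not the same, with 8.24, 8.95 and 7.58 in congenic mice, against 9.53, 8.77 and 9.19 in wild type mice, and these groups overlapped. The level in hypothalamus exceeded that in muscle by 0.79 (SE 0.33; limma adjusted p = 0.0935).

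Htr1b, the inhibitory receptor of serotonergic nerve endings, was 7.41, 8.25 and 7.95 in congenic hypothalamus, against 8.06, 9.16 and 7.69 in wild type hypothalamus. Muscle gave 7.38, 7.94 and 7.51 in congenic mice, against 10.98, 7.90 and 7.92 in wild type mice. Wild type muscle array 1 alone was high, and the groups overlapped in both tissues. The tissue difference was -0.03 (SE 0.51), with a 95% interval of -1.12 to 1.06.

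Htr2a, a receptor that signals through Gq and is best known from the cerebral cortex, was 8.48, 8.0 and 8.03 in congenic hypothalamus, against 8.57, 8.19 and 8.67 in wild type hypothalamus. The levels in muscle were 10.26, 9.10 and 7.89 in congenic mice, against 9.53, 10.58 and 9.44 in wild type mice. Of the 6 muscle arrays, 5 lay above the highest hypothalamus array and congenic muscle array 3 lay below the lowest, and the tissue difference of -1.01 (SE 0.41) did not pass (limma adjusted p = 0.0914).

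Htr2c, the Gq-coupled receptor through which serotonin acts on the proopiomelanocortin neurons of the hypothalamus to reduce feeding, was 8.59, 8.07 and 9.01 in congenic hypothalamus, against 8.0, 7.24 and 8.31 in wild type hypothalamus. In muscle it was 8.02, 8.44 and 7.93 in congenic mice, against 8.07, 9.48 and 7.82 in wild type mice. These ranges overlapped between strains and between tissues, and the tissue difference was 0.06 (SE 0.35, 95% interval -0.69 to 0.81; limma adjusted p = 0.922). Its percentile was 4.1 to 50.5 in hypothalamus and 13.1 to 55.5 in muscle. Htr2c is also strongly expressed in the choroid plexus, whose 8 measured markers had a median of 8.44 to 10.19 on the 3 congenic and 9.07 to 9.24 on wild type hypothalamus arrays 2 and 3. On wild type array 1 that median was 10.23, above the other 5 arrays, but the markers went both ways. Ttr was 7.91 on that array, against 10.88 to 12.23 on the other 5 hypothalamus arrays. Sostdc1 was 12.60 on it, against 8.76 to 10.37. Between the strains 0 of the 8 markers passed, with a median difference of -0.50 over 6 arrays and -0.12 without wild type array 1. The part of the choroid plexus in the Htr2c values was not tested. A probe can also stay low for a transcript that is abundant in the tissue: that of Snap25, a synaptic gene of most neurons, gave 7.33 to 8.26 in hypothalamus and 7.25 to 8.28 in muscle.

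Htr3a, the subunit needed for the serotonin-gated ion channel, was 7.97, 6.89 and 8.45 in congenic hypothalamus, against 8.59, 8.79 and 10 in wild type hypothalamus. The 3 congenic arrays lay below the 3 wild type arrays. In muscle it was 7.97, 7.31 and 7.81 in congenic mice, against 8.39, 7.61 and 8.34 in wild type mice, which overlapped. The tissue difference was 0.70 (SE 0.35; limma adjusted p = 0.167).

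The test of hypothalamus against muscle therefore called 2 of the 8 genes, both higher in hypothalamus, where 27.6% of 33012 probes were called, 13% higher and 14.6% lower. Without wild type array 1 it called the same 2 genes, with 38.8% of probes called, 18.6% higher and 20.1% lower. With both directions counted, the share of members called did not exceed that of all probes. In the higher direction alone the count was 2 of the 8 genes, beside 13% of all probes, and 18.6% without wild type array 1. With 8 genes these shares cannot be told apart.

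Over the strain comparison in hypothalamus limma called 0 of the 8 genes and 0% of 33012 probes. At an unadjusted p under 0.05 there were 0 of the 8 genes and 1.99% of the probes. The differences, congenic minus wild type, were 1.05 for Htr1a (SE 0.56, 95% interval -0.23 to 2.32; limma adjusted p = 0.936) and -1.36 for Htr3a (SE 0.62, -2.78 to 0.07; limma adjusted p = 0.936). For Hdc the difference was 1.13 with an interval of -1.76 to 4.02, which wild type array 1 widened. The other 5 genes ranged from -0.44 for Htr1b to 0.71 for Htr2c. Htr1a and Htr3a were the 2 of 8 genes whose strains did not overlap, where 9.16% of all probes did not overlap.

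Without wild type hypothalamus array 1, with 3 congenic and 2 wild type arrays, limma again called 0 of the 8 genes and 0% of the probes. The means in congenic and wild type mice were 7.77 ± 0.80 and 9.39 ± 0.85 for Htr3a, a difference of -1.62 (SD, n = 3 and 2; SE 0.65, 95% interval -3.11 to -0.13; limma adjusted p = 0.9). For Hrh3 they were 12.22 ± 0.25 and 12.92 ± 0, a difference of -0.70 (SE 0.28, -1.35 to -0.05; limma adjusted p = 0.9). These were the 2 of 8 genes with an unadjusted p under 0.05, a share to set beside 5.33% of all probes. Hdc was 12.27 ± 0.30 in congenic mice and 12.76 ± 0.19 in wild type mice, a difference of -0.49 (SE 0.30, -1.17 to 0.20; limma adjusted p = 0.9), opposite in sign to that over 6 arrays. Htr1a was 9.88 ± 0.03 and 8.91 ± 0.38 in congenic and wild type mice, a difference of 0.97 (SE 0.45, -0.06 to 2; limma adjusted p = 0.9). Htr2c gave 0.78 (SE 0.55, -0.48 to 2.04; limma adjusted p = 0.9), Htr1b gave -0.56, Htr2a -0.26 and Hrh1 -0.13, with overlapping groups for these 4. Of the 8 genes, 4 did not overlap between the strains against 22.6% of all probes. Htr1a was the 1 gene higher in congenic mice, against 9.32% of probes, and Htr3a, Hdc and Hrh3 were the 3 lower, against 13.3%. In all, 6 of 8 differences were negative with a median of -0.37. Of the named genes 44.5% had positive differences, with a median of -0.07. The intervals are wide: for Htr2c the data allow a level in congenic hypothalamus from 0.719 to 4.11 times that of wild type.

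**Figure D2:**
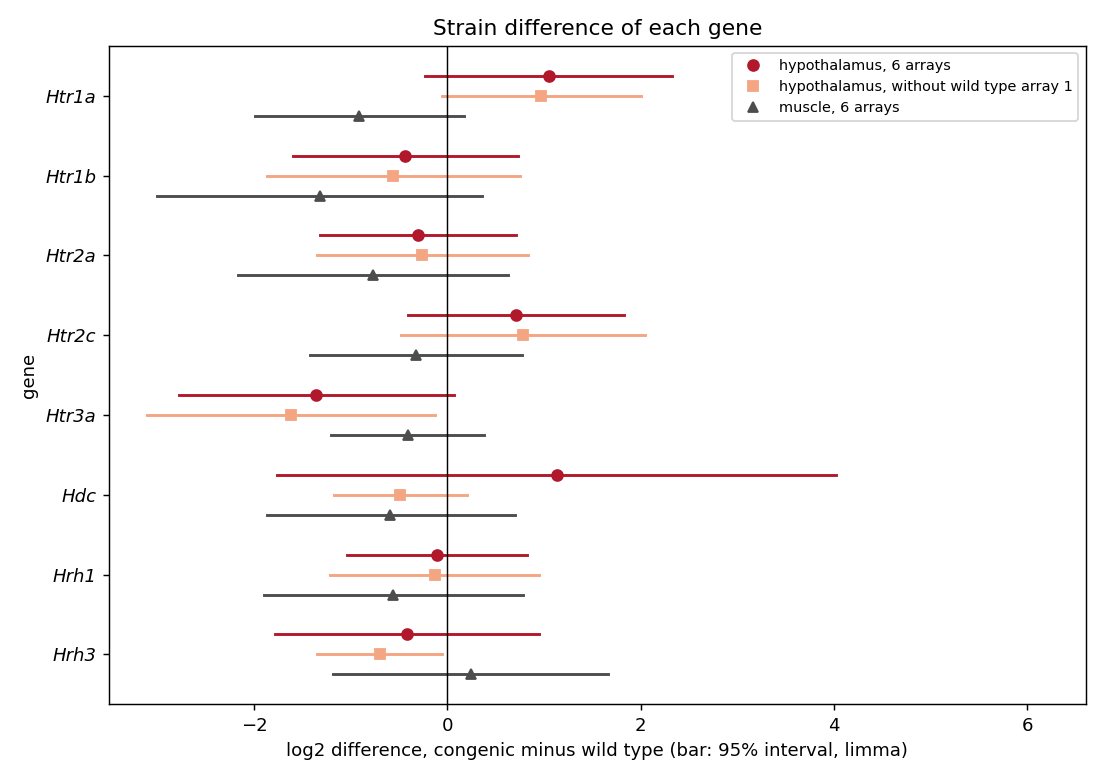
Log2 difference, congenic minus wild type (horizontal axis), of each gene in hypothalamus with all 6 arrays, in hypothalamus without wild type array 1, and in muscle, with 95% intervals from limma as bars. All intervals cross 0 except those of Htr3a and Hrh3 without wild type array 1, and Hdc lies at 1.13 with that array and at -0.49 without it.

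In muscle limma called 0 of the 8 genes and 0.0182% of 33012 probes. At an unadjusted p under 0.05 there were 0 of the 8 genes and 5.01% of the probes. In muscle the strain differences were negative for 7 of 8 genes, with a median of -0.57. Of the named genes 53.4% had positive differences, with a median of 0.03. Those of the 8 genes ran from -1.32 for Htr1b (SE 0.75, 95% interval -3 to 0.36; limma adjusted p = 0.835) to 0.24 for Hrh3 (SE 0.64, -1.18 to 1.66; limma adjusted p = 0.95). Without wild type muscle array 1 the difference of Htr1b was -0.29. Without congenic muscle array 3, Htr2a moved from -0.77 to -0.17 and Hrh1 from -0.56 to -0.13. Htr1a gave -0.91 (SE 0.48; limma adjusted p = 0.835) and Htr2c -0.32 (SE 0.49; limma adjusted p = 0.906). For 0 of the 8 genes did the strains separate, where 11.9% of all probes did. Mast cells, the other source of Hdc, were followed by 8 markers, whose median was 9.21 to 9.80 in congenic muscle and 8.66 to 9.61 in wild type muscle. On the hypothalamus arrays without wild type array 1 the median was 8.23 to 8.98. In hypothalamus against muscle without wild type array 1, 1 of the 8 was called higher and 2 lower by limma, 5 of 8 differences were positive and the median was 0.10. The one called higher was Kit (3.10; limma adjusted p = 4.72e-06), and those called lower were the chymase Cma1 (-3.36; 7e-07) and the carboxypeptidase Cpa3 (-1.83; 0.000645). Between the strains in muscle 0 of the 8 passed, with 4 of 8 differences positive and a median of 0.01. That median covers moves in both directions. At an unadjusted p under 0.05, 2 of the 8 were higher in congenic muscle and 1 was lower, beside 5.01% of all probes. Higher were Tpsab1 (2.39, SE 0.48; limma adjusted p = 0.77) and Cma1 (0.60), and Tpsb2 was lower (-0.51). The part of mast cells in the Hdc values was not tested.

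A test of whether the strain difference itself differed between hypothalamus and muscle called 0 of the 8 genes and 0% of 33012 probes, with 1 of the 8 genes and 3.63% of probes at an unadjusted p under 0.05. That gene was Htr1a, whose difference in hypothalamus exceeded that in muscle by 1.95 (SE 0.65, 95% interval 0.54 to 3.37; limma adjusted p = 0.913). Without wild type hypothalamus array 1 it was 1.87 (SE 0.67; limma adjusted p = 0.692), with 0% of probes called, and it was again the 1 gene of 8 at an unadjusted p under 0.05, where 6.74% of probes were.

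Genes that make, move and break down the same transmitters were followed as lists. In hypothalamus against muscle without wild type array 1, 4 of 12 measured genes of serotonin synthesis, transport and breakdown were called higher and 3 lower, where 18.6% of all probes were called higher and 20.1% lower. Ddc, the aromatic amino acid decarboxylase of serotonin and dopamine synthesis, was higher by 5.51 (limma adjusted p = 7.97e-10), and Slc18a2, the vesicular transporter that loads serotonin, histamine and dopamine into vesicles, by 4.11 (4.02e-07). Maoa, a monoamine oxidase, was higher by 0.99 and Qdpr, which regenerates the cofactor tetrahydrobiopterin, by 2.00. Tph1, the tryptophan hydroxylase of peripheral tissues, fell by 1.52 in hypothalamus relative to muscle, and Spr and Gch1, enzymes of tetrahydrobiopterin synthesis, by 1.42 and 0.78. Tph2, the neuronal tryptophan hydroxylase, marks the serotonergic cell bodies, which lie in the raphe nuclei of the brainstem. It was 7.77, 7.66 and 8.47 in congenic hypothalamus, against 8.40, 7.93 and 7.73 in wild type hypothalamus, and 7.70 to 8.46 on the muscle arrays.

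Of 6 other histamine genes, 2 were called higher in hypothalamus, again beside 18.6% of all probes. They were Hnmt, the methyltransferase that inactivates histamine in brain (2.36; limma adjusted p = 0.000754), and Slc29a4, the plasma membrane monoamine transporter (5.02; limma adjusted p = 2.72e-08). Of 9 other serotonin receptors 0 were higher and 1, the ion channel subunit Htr3b, was lower in hypothalamus (-1.37; limma adjusted p = 0.00341). With all 12 arrays the counts were 4 higher and 2 lower, 2 and 0, and 0 and 1 for these lists, beside 13% of all probes called higher and 14.6% lower.

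Between the strains in hypothalamus without wild type array 1, 0 of these 27 genes passed. The list medians were -0.10, 0.55 and 0.17 for serotonin synthesis, other histamine genes and other serotonin receptors, and -0.07 for the named genes. Over 6 arrays 0 passed as well, with list medians of -0.05, 0.78 and 0.05, and -0.02 for the named genes. Ddc was 13.52, 13.23 and 13.75 in congenic hypothalamus, against 14.23 and 14.13 on wild type arrays 2 and 3, a difference of -0.68 (SE 0.28; limma adjusted p = 0.9). Slc29a4 was 11.94, 11.10 and 12.53 in congenic hypothalamus, against 12.77 and 12.79 on wild type arrays 2 and 3, a difference of -0.93 (SE 0.42; limma adjusted p = 0.9). In both genes the congenic arrays lay below these, as did 13.3% of all probes. So did Gch1, at 9.86, 9.90 and 10.18 in congenic hypothalamus, against 10.29 and 10.60 on wild type arrays 2 and 3. Of the 27 genes, Pts and the histamine receptor Hrh4 lay the other way without overlap, as did 9.32% of all probes. Pts was 13.38, 13.76 and 13.14 in congenic hypothalamus, against 13.09 and 13.07 on wild type arrays 2 and 3. Hrh4 was 7.71, 8.34 and 7.77, against 6.59 and 7.54 on those arrays. Of the 8 neuronal markers 0 passed without wild type array 1 and 4 differences were positive. Their median was 0.18, and they ran from -1.67 for Tubb3 to 1.11 for Nefm. Over 6 arrays 0 passed, 7 of the 8 differences were positive, beside 48.8% of the named genes, and the median was 0.23. The part of neuronal content in these differences was not tested. Slc18a2 differed by -0.40 and Hnmt by 0.08 without wild type array 1. In muscle 0 of the 27 genes passed, with list medians of 0.14, -0.06 and 0.13.

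**Figure D3:**
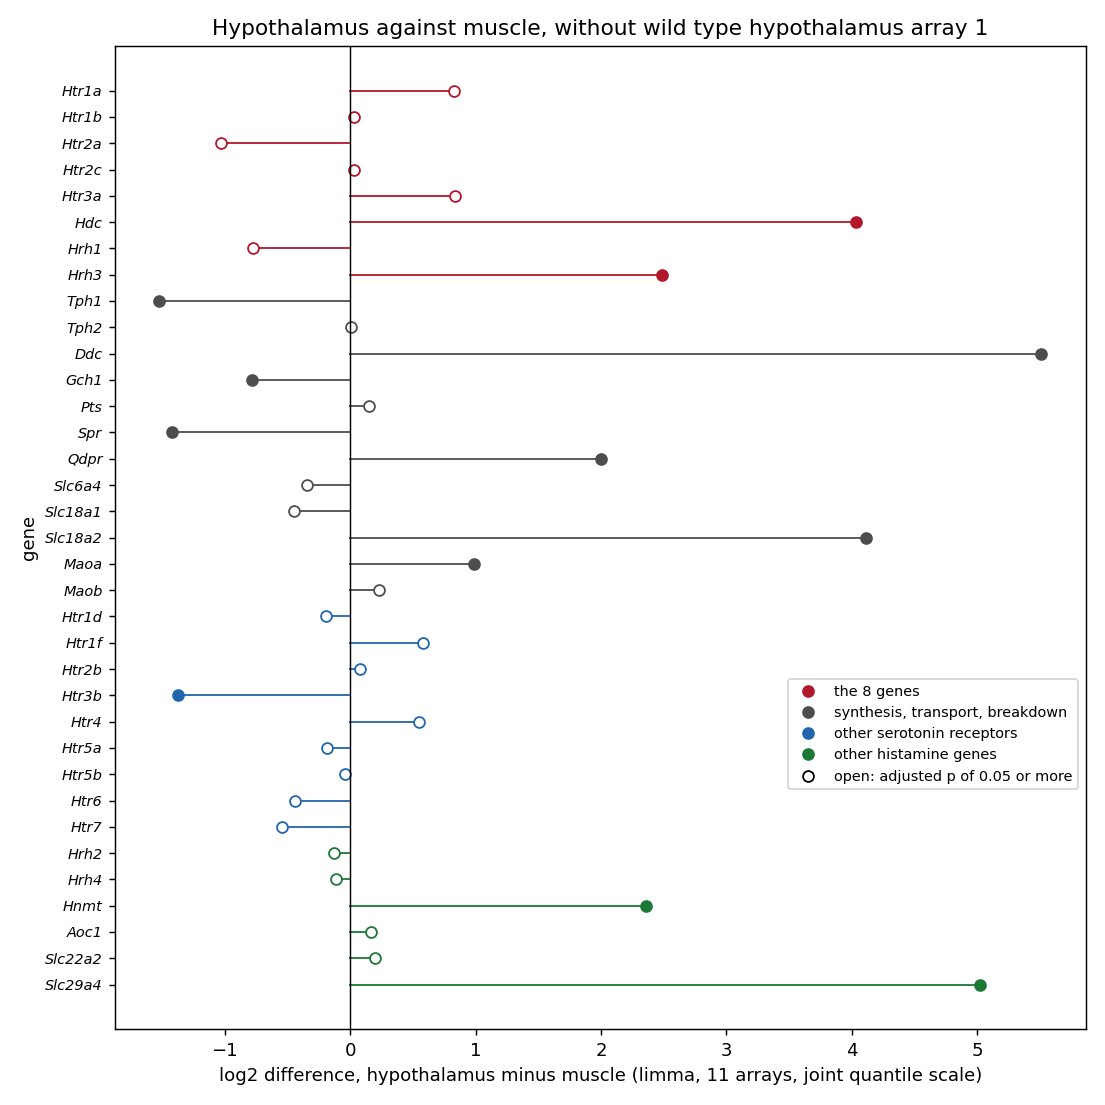
Log2 difference, hypothalamus minus muscle (horizontal axis), of the 8 genes and of 27 other genes of serotonin and histamine, from limma over 11 arrays without wild type hypothalamus array 1; filled circles passed at an adjusted p under 0.05. Hdc (4.03) and Hrh3 (2.49) passed among the 8 genes, and Ddc (5.51), Slc29a4 (5.02) and Slc18a2 (4.11) lay farthest to the right among the others.

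On wild type hypothalamus array 1, Hdc was 4.56 below the mean of the other 5 hypothalamus arrays and Hrh3 was 0.43 below it. Of 2255 probes within 0.5 of the mean of Hdc on those 5 arrays, 34% were lower by over 3 on that array. The other 6 genes deviated by -0.81 (Htr1a) to 0.29 (Htr2a). Among the 8 genes and the listed genes of synthesis, transport, breakdown, receptors and receptor coupling, 19 had a mean above 11 on the 5 arrays, of which 12 (63.2%) were lower by over 3 on wild type array 1, against 31.5% of 8893 probes. Those lower included Ddc (-4.46), Slc18a2 (-3.39), Slc29a4 (-4.02), Spr (-4.05) and Pts (-6.58), and those not lower included Qdpr (0.58) and Maoa (1.18). That array thus gave Hdc at the level of muscle and Hrh3 at that of hypothalamus.

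**Figure D4:**
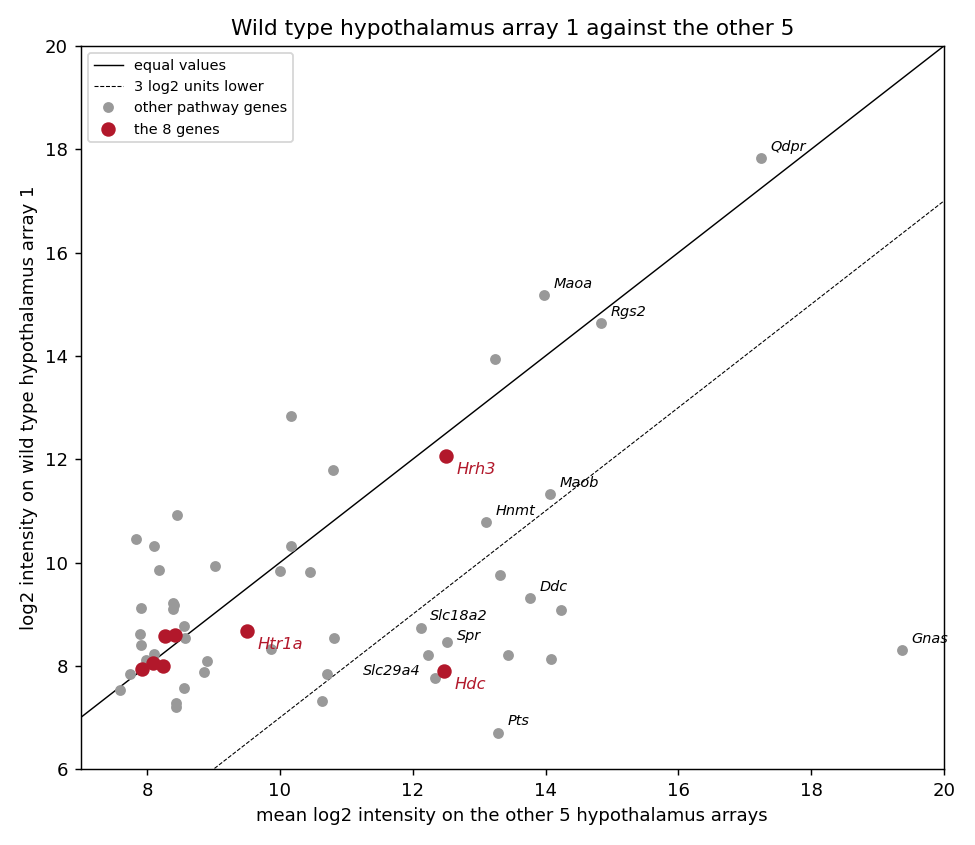
Log2 intensity on wild type hypothalamus array 1 (vertical axis) against the mean of the other 5 hypothalamus arrays (horizontal axis), for the 8 genes (red) and the listed pathway genes (grey); the solid line marks equal values and the dashed line 3 log2 units lower. Hdc lies below the dashed line with Ddc, Slc18a2, Slc29a4, Spr and Pts, and Hrh3 lies near the solid line.

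The gene with the closest profile to each member was taken as the one with the smallest root mean square difference of log2 values over the 12 arrays, each gene centred on its own mean. For Hdc this was Hspa4l, a heat shock protein, at 0.43, where the median over all named genes was 2.26. Hspa4l was 8.71 on wild type hypothalamus array 1, 12.78 to 13.65 on the other 5 hypothalamus arrays and 8.14 to 9.99 in muscle. For Hrh3 it was Prkd1, a protein kinase D, at 0.44 against a median of 1.61. For Htr2a it was Hrh1, itself one of the 8 genes, at 0.37 against 1.17. The smallest of all distances lies below their median by construction, so these values do not test likeness. The closest genes to Hrh1, Htr1a, Htr1b, Htr2c and Htr3a were Spink1 (0.36), Pex6 (0.39), Amot (0.45), Adam24 (0.31) and Stra8 (0.38).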

How the data were processed

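The authors deposited 1 table of 12 arrays with 33012 probes and no missing values, which were taken as log2 intensities. The values run between 5.35 and 21.13, and folds assume base 2 from that range. Per the labels' protocols, TRI-Reagent RNA was turned into digoxigenin-labelled cRNA. The arrays of a tissue shared 1 distribution (median 8.98 in hypothalamus, 9.12 in muscle). For software, background correction and detection calls: not given in the sources used here. Precision is limited by the number of arrays. No 2 arrays were identical.

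Groups came from the titles. The series text calls the mice biological replicates, and whether both tissues came from the same mice is not stated. Of the probes, 14411 carried 1 gene symbol in the platform annotation, 247 several, and 18354 were unnamed here. The probe of highest mean stood for a gene.

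The strain contrast, congenic minus wild type, was fitted within a tissue by lmFit and eBayes (trend) of limma 3.58.1 under R 4.3.3, with Benjamini-Hochberg adjustment over all probes at 0.05. Hypothalamus minus muscle was fitted on the 12 arrays quantile normalized together. No floor or filter was used. The fits were tested on simulated data. Every probe of the members was named, and of each list up to 6 genes by p or defining role, and the gene of closest profile. Outside that rule, Qdpr, Spr, Gch1, Pts, Hrh4, Tubb3, Nefm, Eno2, Hcrt, Tpsab1, Tpsb2, Ttr and Sostdc1 were named after their values were seen. The members and lists were chosen with earlier results of these data known.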

Additional observations from a re-analysis of the deposited data

How the results depend on the processing

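In hypothalamus 0 of the 8 genes and 0 probes passed limma under each alternative tried: leaving out each array, a floor at the 20th percentile, leaving out probes under the 30th percentile, the replicate block, array weights, no trend, all 12 arrays in 1 fit, joint quantile normalization, and, chosen after seeing the data, leaving out array 1 of both strains (growth hormone, Gh, was 17.46 on congenic array 1 and 7.57 to 8.86 on the other 5 hypothalamus arrays). In muscle 0 of the 8 genes passed under the first 8 of these, with 2 to 8 probes called when an array was left out, 2 with the floor, 2 without the trend, 1 with all 12 arrays in 1 fit and 6 with the replicate block. Signs turned as follows; the cause was not tested. In hypothalamus Hdc gave -0.63 without array 1 of both strains, -0.30 with array weights and -0.49 to 2.01 with each array left out, and Hrh1 gave 0.08 with the floor and -0.41 to 0.17 with each array left out. In muscle Hrh3 ranged from -0.55 to 0.68 and Htr2c from -0.64 to 0.19. Between the tissues Htr2c gave -0.09 on the values as deposited and Htr1b 0.03 without wild type hypothalamus array 1; Hdc and Hrh3 passed under each of the 3 alternatives run, with adjusted p-values in limma of 0.00885 and 0.00585 with the replicate block. Same-numbered arrays of the 2 strains had deviations correlated at -0.13 to 0.14 in hypothalamus and 0.01 to 0.07 in muscle, so the numbers were not taken as pairs. The dim-probe filter removed 3 of the 8 genes in each tissue. Signal over background is unknown, which limits what low probes can show.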

Other observations

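Genes that couple the receptors to their effectors, such as G proteins, phospholipase C and regulators of G protein signalling, were also followed. In hypothalamus against muscle without wild type array 1, 11 of 21 measured genes were called higher and 2 lower by limma, where 18.6% of all probes were called higher and 20.1% lower. Over all 12 arrays the counts were 6 and 2, beside 13% and 14.6% of all probes. Prkcb, a protein kinase C of the Gq pathway, was higher by 5.15 (limma adjusted p = 1.25e-08), Rgs2, which limits Gq signalling, by 4.55 (3.71e-09) and Gnao1, the Go subunit abundant in neurons, by 4.06 (2.06e-06). S100a10, an adaptor protein of Htr1b, fell by 1.68 in hypothalamus relative to muscle (limma adjusted p = 0.000898). Between the strains in hypothalamus without that array 0 of the 21 passed. The median was -0.24 and 6 of 21 differences were positive, beside 44.5% of the named genes. Over 6 arrays 0 of the 21 passed, with a median of 0.33 and 15 of 21 differences positive, beside 48.8% of the named genes. Kcnj3, a potassium channel subunit opened by Gi-coupled receptors, was 8.57, 7.96 and 8.48 in congenic hypothalamus, against 9.30 and 10.17 on wild type arrays 2 and 3, a difference of -1.40 (SE 0.53; limma adjusted p = 0.9).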
